A study of Mus musculus with 15 samples.

Results

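The cardiac derivatives of expandable cardiovascular progenitor cells were compared with the mouse embryonic fibroblasts (MEFs) that had entered the same reprogramming route, which sets the end state of the route against its starting state. The comparison took 6 of the 15 RNA-seq libraries of the series, 3 of cardiac derivatives (CM) and 3 of MEFs, and every gene with enough counts in them. The series followed fibroblasts through cardiac reprogramming, with further libraries from day 9 of reprogramming and from induced expandable cardiovascular progenitor cells (ieCPCs) at passages 3 and 12, again 3 libraries each. All cells had a mixed C57BL/6 and 129J/SvE background and are labelled wildtype. The MEFs were secondary MEFs at passage 3, kept in MEF medium. Fibroblasts called secondary usually derive from reprogrammed cells that hold inducible factors, but the labels name no transgene. To make ieCPCs, MEFs spent 6 days in reprogramming medium and 2 days in transdifferentiation medium before a basal medium with the factor mix BACS, and cells were sorted on day 13 and passaged. The CM libraries came from ieCPCs held for 25 days in serum-free cardiac differentiation medium, and the ieCPC passage used is not given in the labels. Fibroblasts and derivatives therefore differed in medium, serum and time in culture as well as in cell identity, and these cannot be told apart. The labels do not say that the replicates were separate cultures, so the p-values below measure the spread between these libraries, which may be technical.

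Heart muscle contracts when calcium released from the sarcoplasmic reticulum lets myosin of the thick filament pull on actin of the thin filament. Titin runs from the end to the middle of the repeating unit of both, the sarcomere. The transcription factors Gata4, Tbx5, Mef2c and Nkx2-5 act together on these genes in the developing heart. Fibroblasts make the collagens, proteoglycans and glycoproteins of connective tissue, and those of the embryo also keep the Hox code of the body region they came from. Mitochondria are dense in heart muscle, which burns mainly fatty acids.

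Total assigned counts were 25679727 to 28686764 in MEFs and 28443230 to 29996464 in the CM libraries. Transcripts of the mitochondrial genome took 26.6, 28.3 and 27.1% of them in MEFs and 53.4, 52.0 and 59.4% in the CM libraries. The groups did not overlap, with means of 27.3 ± 0.918% and 54.9 ± 3.92% (SD, n = 3); the exact 2-sided permutation p was 0.1, the smallest that 3 against 3 can give. Levels are therefore given as CPM, counts scaled to 1000000 nuclear counts a library with TMM factors, and mitochondrial genes are on that scale too. Nuclear counts were 18403083 to 20919390 in MEFs and 12178439 to 14250457 in the CM libraries, so a low gene had fewer counts behind it in the derivatives. CM replicate 3 stood apart from CM replicates 1 and 2: chi-square per degree of freedom over nuclear counts was 12.24 and 21.4 for its pairs with them, 8.29 between replicates 1 and 2, and 4.30 to 7.28 among MEFs.

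**Figure D1:**
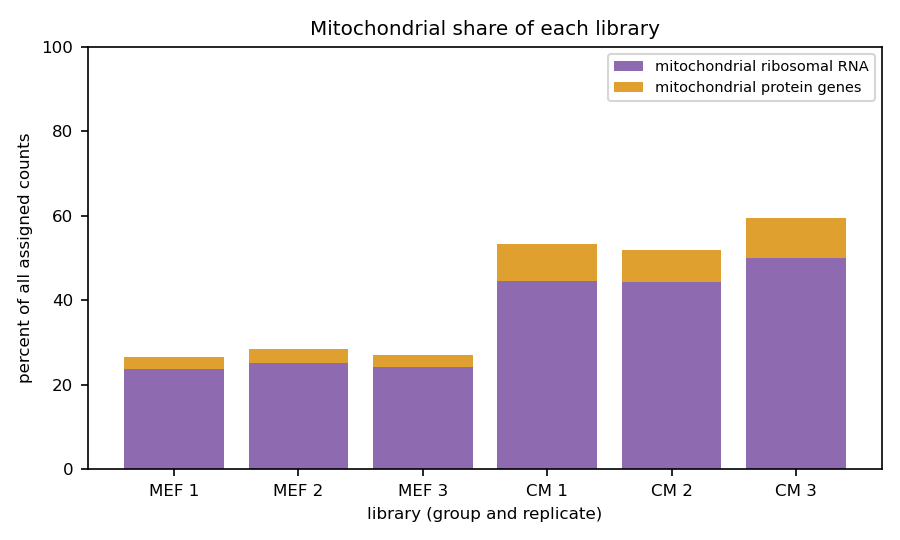
Percent of all assigned counts (y axis) that fell on mitochondrial ribosomal RNA and on mitochondrial protein genes in each of the 6 libraries (x axis, bars stacked). The CM bars reach 52.0 to 59.4%, and the MEF bars 26.6 to 28.3%.

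The cardiac label was checked against its markers first. Tnnt2, which encodes cardiac troponin T of the thin filament (ENSMUSG00000026414, mm9 chr1:137737452-137748837), measured 0.879, 0.860 and 1.18 CPM in the MEF libraries and 2605, 1876 and 3152 CPM in the CM libraries. Myh6, the alpha myosin heavy chain of the heart (ENSMUSG00000040752, chr14:55560758-55585764), measured 0.103, 0.108 and 0.0472 CPM in the MEF libraries and 2880.1, 1686 and 3166 CPM in the CM libraries. Actc1, cardiac alpha-actin (ENSMUSG00000068614, chr2:113873018-113879284), measured 1.03, 1.29 and 1.42 CPM in the MEF libraries and 2685, 1906 and 4681 CPM in the CM libraries. All 3 genes were near 0 in every MEF library and high in every CM library, with CM replicate 2 the lowest each time. Their log2 fold changes were 11.33 ± 0.26, 14.77 ± 0.39 and 11.26 ± 0.41 (estimate ± SE), with adjusted p of 2.6e-11, 7.0e-11 and 7.3e-10 in edgeR's quasi-likelihood test with Benjamini-Hochberg adjustment over all genes tested, the test behind every call in this report. The fibroblast marker Thy1, a surface glycoprotein (ENSMUSG00000032011, chr9:43851467-43856662), measured 585, 536 and 552 CPM in the MEF libraries and 19.3, 20.7 and 9.07 CPM in the CM libraries. It fell 33.8-fold, with a log2 change of -5.08 ± 0.22 and an adjusted p of 2.6e-09, yet was still detected in each CM library, lowest in replicate 3. Lyz2, the macrophage lysozyme (ENSMUSG00000069516, chr10:116714390-116719377), measured 299, 282 and 290.01 CPM in the MEF libraries and 175, 229 and 181 CPM in the CM libraries. It was lower in every CM library by a log2 change of -0.57 ± 0.10 and stayed well above 0 in both groups.

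Across the transcriptome, 16032 of 37991 genes had enough counts to test, and 11374 of them (70.9%) passed an adjusted p of 0.05. Of these, 5777 were higher in the derivatives (36.0% of genes tested) and 5597 lower (34.9%). Changes beyond 2-fold were more often rises, with 3337 genes higher and 1975 lower, and 3737 genes (23.3%) passed a test against a 2-fold change. The 3 libraries of one group lay wholly above those of the other for 12056 genes (75.2%). Over all genes tested, the log2 change had a median of 0.0069. With most genes called, a call on its own says little about a gene, and the sizes of the changes carry more. The list counts that follow are descriptions of the same kind: a gene that passed the filter on counts only through the group where it was high had to differ. They are to be read against the 36.0% higher and 34.9% lower over all genes tested, so a list that divided evenly resembles the whole. RNA came from whole cultures, in which fewer cells of a type and less RNA per cell cannot be told apart.

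The promoters of 4 genes at the extremes of the comparison are shown, the 3 cardiac markers and the gene with the deepest fall, Hoxd13, to set the kinds of start site side by side. Each run holds the 250 bases before the gene's start, 5′ to 3′ on the gene's strand, from RefSeq on GRCm38.p6, a later build than the mm9 of the counts. Myh6 lies on the minus strand at chr14:54966608-54966857, Tnnt2 on the plus strand at chr1:135836084-135836333, Actc1 on the minus strand at chr2:114052876-114053125 and Hoxd13 on the plus strand at chr2:74667975-74668224. Capitals mark matches, on either strand, to the CArG box read by serum response factor, the MEF2 box, the GATA motif AGATAA, the TEAD motif CATTCC or the TATA motif TATAAA.
Myh6: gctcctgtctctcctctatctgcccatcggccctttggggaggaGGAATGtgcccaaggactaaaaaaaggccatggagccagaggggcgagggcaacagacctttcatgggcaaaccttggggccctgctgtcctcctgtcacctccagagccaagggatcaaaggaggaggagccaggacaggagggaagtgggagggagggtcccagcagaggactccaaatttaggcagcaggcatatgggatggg
Tnnt2: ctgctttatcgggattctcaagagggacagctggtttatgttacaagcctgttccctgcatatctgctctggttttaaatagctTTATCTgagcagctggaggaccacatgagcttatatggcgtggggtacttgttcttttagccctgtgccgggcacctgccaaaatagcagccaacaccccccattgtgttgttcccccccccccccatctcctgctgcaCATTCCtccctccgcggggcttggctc
Actc1: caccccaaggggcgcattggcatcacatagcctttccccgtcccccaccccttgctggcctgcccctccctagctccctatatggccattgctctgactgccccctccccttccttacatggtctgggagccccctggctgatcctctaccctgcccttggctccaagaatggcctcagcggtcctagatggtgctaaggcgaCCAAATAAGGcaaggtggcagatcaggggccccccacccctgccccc
Hoxd13: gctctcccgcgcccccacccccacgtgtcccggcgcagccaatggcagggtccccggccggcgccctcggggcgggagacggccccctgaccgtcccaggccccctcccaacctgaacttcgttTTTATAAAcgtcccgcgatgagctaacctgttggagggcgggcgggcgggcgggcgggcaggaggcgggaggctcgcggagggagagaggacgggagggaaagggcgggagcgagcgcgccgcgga
The Myh6 window held 1 CATTCC match on the opposite strand, 206 bases before the start. The Tnnt2 window held AGATAA on the opposite strand and CATTCC on its own strand, 166 and 27 bases before the start. Actc1 carried a CArG box 47 bases before the start, a motif found in 1.47% of the 32851 mouse promoters of the table. The MEF2 box was found in 2.92% of them, AGATAA in 9.99%, CATTCC in 12.6% and TATAAA in 12.4%. The Hoxd13 window had 2 overlapping TATAAA matches, 31 CpG dinucleotides and 74.4% G and C, against 2, 5 and 4 CpG for Myh6, Tnnt2 and Actc1 and a median of 6 over all promoters. A match describes these letters only and shows no binding.

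**Figure D2:**
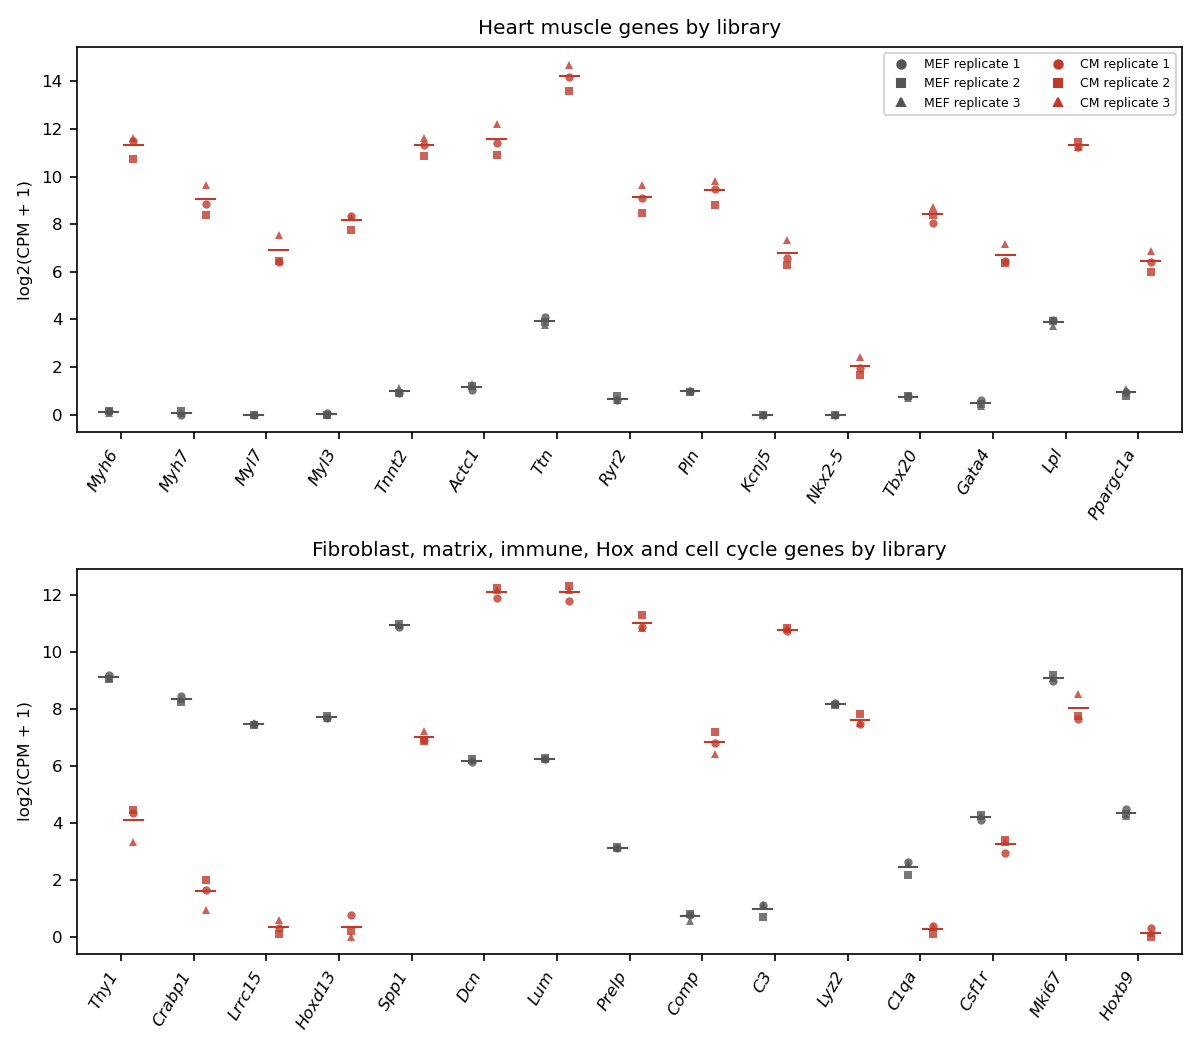
Levels of 30 genes as log2(CPM + 1) (y axis) by gene (x axis), with 1 symbol per library, MEFs in grey and CM in red; the short lines mark log2(mean CPM + 1) of 3 libraries. In the upper panel the CM libraries lie above the MEF libraries for every gene; in the lower panel Dcn, Lum, Prelp, Comp and C3 are higher in CM and the other genes lower.

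The contractile apparatus held several of the largest rises, ranked by fitted log2 change at 10 CPM or more with predicted genes left out. For genes at 0 counts in MEFs the fitted value depends on the fit's prior, so their place in the ranking is uncertain. Of the 12 genes with the largest rises, Myh6, Myl7, Myl3, Myh7 and Myl2 encode myosin heavy or light chains of the heart. Among thick filament and motor genes, 15 of 16 tested members rose (of 18 listed), none fell, and the median log2 change was 8.44. Myl7, the atrial regulatory light chain, had 0 counts in all MEF libraries and 84.0, 87.0 and 188 CPM in the CM libraries, at least 2302-fold higher when 3 counts over the MEF group serve as the floor. Myl2, the ventricular regulatory light chain, measured 236, 146 and 269.5 CPM against 3 counts over all MEF libraries. Both light chains were thus present in each CM library, Myl2 lowest in replicate 2. Myh7, the slow beta heavy chain, measured 456, 329 and 801 CPM, a ratio to MEFs of 10155 (95% counting interval 3474 to 49248). Per kb of transcript, the 2 heavy chains stood at 402 (Myh6) and 61.6 (Myh7) CPM per kb in the mean of the CM libraries. Myl3, an essential light chain, had 1 count over the MEF libraries and measured 327, 218 and 316 CPM. Mybpc3, cardiac myosin binding protein C, rose from 0.0875 ± 0.0794 to 202 ± 59.2 CPM (mean ± SD, n = 3 in each group, as in all such pairs below).

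Of the 14 thin filament genes tested, 11 rose and 1 fell. Tnni1 and Tnni3, the slow skeletal and the cardiac troponin I, both rose, from 0.371 ± 0.234 to 80.8 ± 34.2 CPM and from 1.29 ± 0.562 to 172 ± 39.9 CPM. In the developing heart, Tnni1 precedes Tnni3. Per kb they stood at 47.3 and 89.3 CPM per kb in the derivatives. The cardiac troponin C gene, Tnnc1, could not be read, because the annotation holds 2 overlapping models of it with 0 and 11 counts over the 6 libraries.

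Titin and the Z-disc, which anchors thin filaments, changed as widely. Ttn measured 16.4, 13.8 and 12.6 CPM in the MEF libraries and 18520.3, 12503 and 26793 CPM in the CM libraries. No other nuclear gene named here had a higher CPM in the derivatives apart from the noncoding RNA Malat1, although the Ttn transcript is very long and its level per kb, 165 CPM per kb, was below that of Actc1 (1910.3) and Tnnt2 (2301). Its log2 change was 10.40 ± 0.33, and every CM library lay far above every MEF library. 18 of 20 tested Z-disc genes rose and 1 fell. Actn2, the sarcomeric alpha-actinin, rose from 0.909 ± 0.490 to 239 ± 108 CPM. Csrp3, a muscle LIM protein, had 1 count in the MEF libraries and reached 52.8, 33.8 and 81.3 CPM, and Myoz2, which binds calcineurin at the Z-disc, had 1 and reached 32.4, 23.4 and 54.1 CPM. Trim55, a titin-associated ubiquitin ligase, reached 52.7, 44.4 and 107 CPM. Without CM replicate 3 the counts of rising genes were 14 for the thick filament, 11 for the thin filament and 18 for the Z-disc.

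Genes of excitation and calcium cycling rose with the filaments. 16 of 20 tested calcium handling genes were higher and 2 lower, with a median log2 change of 2.21; without CM replicate 3, 17 were higher and 4 lower. Ryr2, the calcium release channel of the cardiac sarcoplasmic reticulum, measured 0.517, 0.699 and 0.520 CPM in the MEF libraries and 553, 352 and 806 CPM in the CM libraries. Pln, phospholamban, which restrains the calcium pump, measured 0.982, 0.914 and 0.992 CPM in the MEF libraries and 709.99, 447 and 906 CPM in the CM libraries. Both were below 2 CPM in each MEF library, and both were lowest in CM replicate 2 and highest in CM replicate 3. The pump itself, Atp2a2, was already abundant in MEFs and rose from 481 ± 20.3 to 1862 ± 625 CPM, a log2 change of 1.95 ± 0.19. Trdn, triadin, which ties the release channel to calsequestrin, went from 1 count to 104, 74.6 and 195 CPM. Sln, sarcolipin, another restraint on the pump that marks atrial muscle, had 0 counts in MEFs and 3.56, 4.48 and 8.65 CPM, at least 107-fold higher.

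All 14 tested ion channel genes passed the test, 11 higher and 3 lower. Kcnj5, a subunit of the potassium channel opened by acetylcholine, had 0 counts in MEFs and measured 95.9, 77.4 and 159.9 CPM, at least 2142-fold higher. Its partner Kcnj3 measured 15.7, 10.9 and 21.9 CPM, but 31.1% of its exon bases are shared with another gene model. Chrm2, the muscarinic receptor that opens this channel in the atria and the pacemaker, had 2 counts in MEFs and measured 150.2, 114 and 218 CPM. Chrm2 and Kcnj5 were thus detected together in every CM library and nearly absent from MEFs. The level of Kcnj3 is less certain because of its shared bases. Hcn4, the pacemaker current channel, measured 5.30, 2.70 and 9.23 CPM against 2 counts in MEFs. At the intercalated disc, which couples neighbouring heart cells, 9 of 13 genes rose and 1 fell. The desmosome genes Dsp and Dsg2 rose from 1.08 ± 0.613 to 399 ± 136 CPM and from 0.252 ± 0.0891 to 54.3 ± 26.2 CPM. Ctnna3, a catenin of this junction, rose from 0.124 ± 0.136 to 34.2 ± 15.3 CPM. The gap junction gene Gja1 changed little, from 226 ± 3.05 to 283 ± 43.5 CPM, a log2 change of 0.32 ± 0.10 with an adjusted p of 0.013 in edgeR's test, and it missed the threshold without CM replicate 1 (adjusted p = 0.065 in edgeR's test) or without MEF replicate 3 (0.056). Among receptors of the adrenergic, muscarinic and angiotensin systems, 11 of 16 rose and 3 fell. Ace, the angiotensin-converting enzyme, rose from 2.03 ± 0.157 to 221 ± 36.3 CPM, the angiotensin receptor Agtr1a from 1.01 ± 0.193 to 34.8 ± 8.34 CPM, and the beta-adrenergic receptor Adrb1 from 0.496 ± 0.171 to 4.67 ± 3.08 CPM.

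Natriuretic peptides and other genes of the fetal heart rose in 19 of 20 cases. Nppb, the B-type peptide, measured 15.2, 14.1 and 26.5 CPM, and Nppa, the atrial peptide, 17.9, 18.3 and 23.5 CPM, each from 5 counts in MEFs; 61.5% of the exon bases of Nppa overlap another gene model. Mb, myoglobin, which stores oxygen, measured 94.3, 52.1 and 65.9 CPM against 4 counts in MEFs. Ckm, the muscle creatine kinase, measured 21.2, 14.0 and 19.1 CPM against 1 count, with 31.9% of its exon bases shared. These genes were detected in every CM library. Myo18b, an unconventional myosin of muscle, and Lrrc10, a heart leucine-rich repeat protein, had 0 counts in MEFs and 37.8, 26.9 and 54.9 CPM and 24.1, 13.4 and 25.9 CPM in the CM libraries, at least 770.04-fold and 410.2-fold higher. The remaining largest rises were Ptgds, a prostaglandin D synthase, with 0 counts in MEFs and 38.7, 27.0 and 42.9 CPM, and Fmo2, a flavin monooxygenase, which rose from 0.124 ± 0.136 to 339.9 ± 54.5 CPM.

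Cardiac transcription factors were more mixed than the structural genes, with 22 higher and 5 lower among 28 tested and a median log2 change of 1.19. Tbx20, a T-box factor of the early heart, measured 0.724, 0.699 and 0.614 CPM in the MEF libraries and 268, 331 and 427 CPM in the CM libraries. Gata4 measured 0.517, 0.376 and 0.283 CPM in the MEF libraries and 85.6, 82.4 and 141 CPM in the CM libraries. Both were below 1 CPM in each MEF library. Nkx2-5, a homeobox factor of heart progenitors, had 0 counts in MEFs and only 2.87, 2.20 and 4.28 CPM, at least 60.3-fold higher. Irx4, a factor of ventricular muscle, likewise had 0 counts and reached 6.73, 5.12 and 8.31 CPM, at least 131-fold higher. Tbx5 and Mef2c were already present in MEFs and rose 2.27-fold (from 17.1 ± 0.868 to 38.9 ± 16.2 CPM) and 2.06-fold (from 51.9 ± 1.42 to 107 ± 15.7 CPM). The 5 lower factors were Hey1, Heyl, Tbx18, Tbx3 and Nfatc4. Hey1, a Notch target, fell from 23.3 ± 2.83 to 1.40 ± 0.541 CPM.

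Genes of other kinds of muscle were fewer or divided. Of 17 skeletal muscle genes only 6 had enough counts, and only Myl1, a light chain that the fetal atrium also uses, rose, from 0.0839 ± 0.0264 to 16.8 ± 5.20 CPM; without CM replicate 3, 2 genes of the list rose. The skeletal master regulators Myod1 and Myog had 0 counts in MEFs and 1 and 2 over the CM libraries. Among smooth muscle genes, 6 rose and 6 fell of 15 tested, against 36.0% higher and 34.9% lower over all genes tested. Acta2, smooth muscle actin, which stress-fibre-rich fibroblasts also make, measured 3370.1, 3434 and 3450.3 CPM in the MEF libraries and 1633, 1649 and 1102 CPM in the CM libraries. It was lower in each CM library, by a log2 change of -1.23 ± 0.14. Tagln, transgelin, fell from 343 ± 24.2 to 116 ± 27.8 CPM, and Cnn1, calponin, from 85.8 ± 6.93 to 3.87 ± 1.40 CPM. Mylk, myosin light chain kinase, rose from 37.0 ± 3.19 to 402 ± 45.8 CPM, and Npnt, a matrix protein, from 13.8 ± 1.42 to 111 ± 18.2 CPM. Myh11, smooth muscle myosin, did not pass, at 32.5, 42.6 and 37.2 against 45.8, 28.8 and 17.9 CPM and a log2 change of -0.27 ± 0.24; without CM replicate 1 it was called lower, at -0.68 (adjusted p = 0.0083 in edgeR's test).

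Genes of fibroblast identity fell in part and rose in part. Of 26 tested genes, 13 fell and 10 rose, 9 and 6 of them beyond 2-fold. The share that rose was close to the 36.0% of all genes tested, and the share that fell was above their 34.9%. Beyond 2-fold, falls outnumbered rises in the list, whereas over all genes tested 3337 rose and 1975 fell. The summed CPM of the list was 31867, 32998 and 32976 in MEFs and 29837, 32871 and 25837 in the CM libraries, so these sums overlapped. Fn1, Col1a1 and Col1a2 made up most of each sum, with means of 8461, 6831 and 6899 CPM in MEFs. In the derivatives they stood at 11736, 4663 and 6319 CPM, so the sums say little about the other members. Pdgfra, a growth factor receptor of mesenchymal cells, rose from 197 ± 7.72 to 378 ± 16.3 CPM. Tcf21, a factor of epicardial and heart fibroblast precursors, rose from 0.398 ± 0.189 to 10.9 ± 4.50 CPM, and Dpep1, a dipeptidase, from 2.05 ± 0.586 to 56.5 ± 8.12 CPM. Postn, periostin, fell from 2801 ± 190.3 to 1519 ± 191 CPM. Prrx1 fell from 941 ± 29.0 to 269 ± 28.1 CPM, Twist1 from 49.9 ± 2.74 to 16.4 ± 2.60 CPM and Twist2 from 11.0 ± 1.11 to 1.40 ± 0.491 CPM. S100a4 did not pass, at 124, 97.1 and 116 against 91.8, 109 and 44.7 CPM, but was called lower under 4 of the alternatives, among them the analysis without CM replicate 2.

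Outside the Hox clusters, the deepest falls were in genes of varied roles. Lrrc15, a membrane protein of mesenchymal stroma, measured 177, 172 and 181 CPM in the MEF libraries and 0.227, 0.0711 and 0.504 CPM in the CM libraries. Il1rl1, the interleukin 33 receptor, measured 196, 180.2 and 200.3 CPM in the MEF libraries and 0.0756, 0.498 and 0.336 CPM in the CM libraries. Lhx9, a LIM homeobox factor, measured 81.0, 85.8 and 78.6 CPM in the MEF libraries and 0.227, 0.355 and 0.168 CPM in the CM libraries. All 3 were strong in every MEF library and below 1 CPM in every CM library. Crabp1, which binds retinoic acid in the cytoplasm, fell from 329.7 ± 24.0 to 2.01 ± 1.04 CPM. Of the other largest falls, Spock3, a matrix proteoglycan, fell from 48.1 ± 2.78 to 0.348 ± 0.258 CPM, and Ppbp, a platelet chemokine, from 31.4 ± 3.07 to 0.154 ± 0.0130 CPM. Gldn, Moxd1 and Il18rap had 3, 3 and 2 counts over the CM libraries, from means of 23.4 to 0.0756 CPM, 20.9 to 0.0797 CPM and 13.0 to 0.0517 CPM for MEFs and derivatives.

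The Hox genes fell almost as a block. Of 39 Hox genes, 32 were tested, 30 of them fell and none rose; the median log2 change was -4.02, or -3.98 with the gene at 0 counts set at its bound. Hoxd13, the most posterior gene of its cluster and a gene of the distal limb (ENSMUSG00000001819, chr2:74506367-74509656), measured 208, 213 and 205 CPM in the MEF libraries and 0.681, 0.142 and 0 CPM in the CM libraries. Hoxb9, a trunk gene, measured 21.7, 18.9 and 18.1 CPM in the MEF libraries and 0.227, 0 and 0.0839 CPM in the CM libraries. Both were nearly silent in the derivatives. Hoxd12 had 1 count over the CM libraries, a ratio of MEFs to derivatives of 517 (95% counting interval 92.4 to 20431). Hoxa5 fell from 10.1 ± 0.172 to 0.506 ± 0.221 CPM and Hoxc8 from 30.01 ± 2.30 to 0.752 ± 0.228 CPM. The tested exceptions were Hoxb3 and Hoxb4, which did not pass, at 2.22, 2.37 and 3.12 against 1.51, 2.20 and 0.839 CPM and 9.1996, 5.81 and 7.09 against 6.20, 8.67 and 4.45 CPM.

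**Figure D3:**
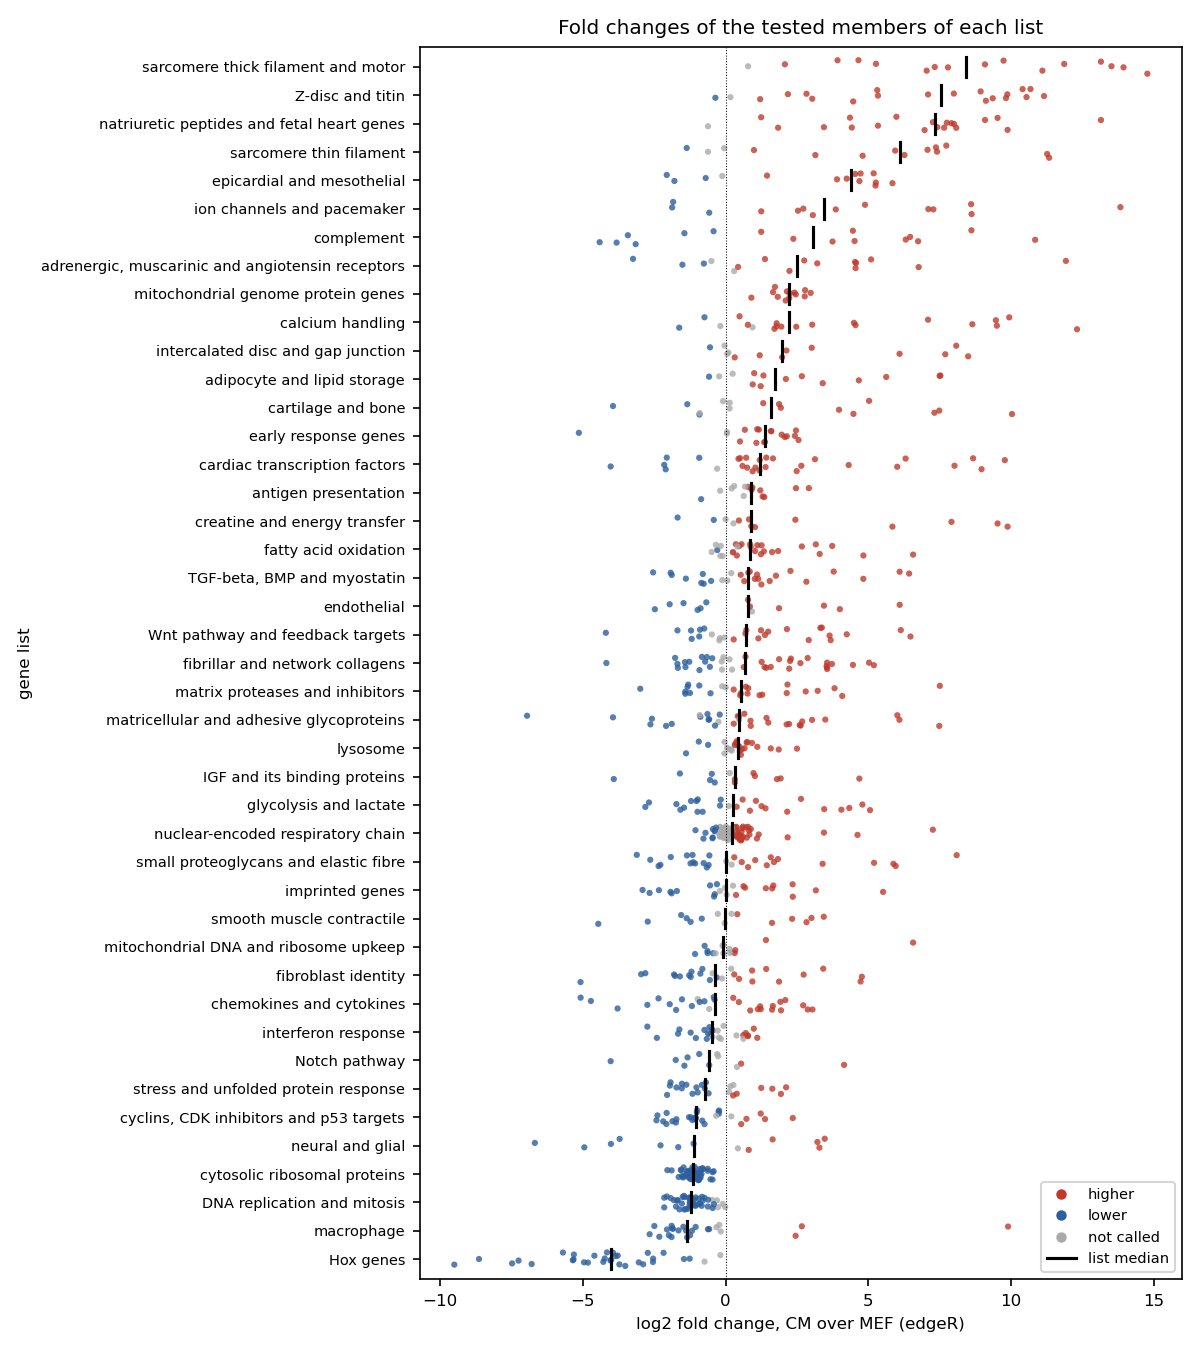
Fitted log2 fold change, CM over MEF (x axis), of each tested member of the 43 lists with at least 10 tested genes (y axis, ordered by median), coloured by call; black bars mark list medians. Values of genes with 0 counts in a group depend on the fit's prior and are not bounds; medians run from -4.02 for Hox genes to 8.44 for the thick filament.

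Matrix genes moved in both directions. Among collagens, 20 of 38 rose and 13 fell, and the summed level of the list differed little, 27027, 28169 and 27836 CPM in MEFs and 26132, 27992 and 25152 in the CM libraries. Col1a1, a chain of type I collagen, measured 6852, 6554 and 7086 CPM in the MEF libraries and 4829.7, 4789 and 4370.3 CPM in the CM libraries. Col3a1, of type III collagen, measured 4532, 4837 and 4685 CPM in the MEF libraries and 7176, 8030.2 and 7587 CPM in the CM libraries. The first was lower in each CM library by a log2 change of -0.55 ± 0.10 and the second higher by 0.70 ± 0.10. All 6 chains of type IV collagen, the network of basement membranes, rose. Col4a1 rose from 324 ± 4.65 to 968 ± 62.3 CPM, Col4a6 from 2.85 ± 0.791 to 62.5 ± 1.00 CPM and Col4a3 from 0.547 ± 0.324 to 20.7 ± 3.19 CPM. Col9a1, a cartilage collagen, rose from 0.173 ± 0.0885 to 5.74 ± 1.69 CPM.

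Dcn, Lum and Prelp, small leucine-rich proteoglycans that bind collagen fibrils, rose steeply in a list that otherwise divided. Dcn, decorin, measured 69.2, 74.4 and 72.9 CPM in the MEF libraries and 3876, 4911 and 4665 CPM in the CM libraries. Lum, lumican, measured 75.3, 76.7 and 75.3 CPM in the MEF libraries and 3603, 5104 and 4644 CPM in the CM libraries. Prelp, another member of the family, measured 7.70, 7.80 and 7.65 CPM in the MEF libraries and 1886, 2565 and 1868 CPM in the CM libraries. The groups were far apart for all 3, and each was highest in CM replicate 2. The log2 changes were 5.96 ± 0.13, 5.88 ± 0.15 and 8.09 ± 0.16. Over the whole proteoglycan and elastic fibre list, 13 genes rose and 14 fell of 29, an even split like that of all genes tested. Eln, elastin, rose from 18.2 ± 0.942 to 54.5 ± 12.9 CPM. The fibrillins Fbn1 and Fbn2, scaffolds of elastic fibres, fell from 3261 ± 171 to 1462 ± 199.7 CPM and from 1330.2 ± 21.4 to 262 ± 9.33 CPM. Dcn and Lum ranked among the 6 most abundant nuclear genes per kb of the derivatives, at 2315 and 2145 CPM per kb, beside Malat1, Fth1 (ferritin heavy chain), Sparc and Tnnt2 at 8307, 2919, 1912 and 2301.

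Among matricellular and adhesive glycoproteins, 18 of 33 rose and 12 fell. Spp1, osteopontin, measured 1894, 2044 and 1997 CPM in the MEF libraries and 120.2, 117 and 149 CPM in the CM libraries. It fell 15.4-fold and no library of either group reached the other. Tnn, tenascin N, fell from 60.9 ± 4.48 to 0.479 ± 0.141 CPM, whereas Tnxb, tenascin X, rose from 0.269 ± 0.0620 to 18.9 ± 2.30 CPM. Comp, cartilage oligomeric matrix protein, rose from 0.632 ± 0.144 to 113 ± 29.5 CPM. Fn1, fibronectin, rose 1.39-fold, from 8461 ± 207 to 11736 ± 1998 CPM. Among proteases and inhibitors, 15 rose and 8 fell of 25. The metalloproteinases Mmp2, Mmp3 and Mmp13 rose from 297 ± 9.24 to 678 ± 73.0 CPM, from 8.01 ± 0.654 to 113 ± 11.4 CPM and from 7.48 ± 0.424 to 70.0 ± 33.2 CPM. Adamts9, a proteoglycan-cleaving enzyme, rose from 16.5 ± 0.804 to 280.4 ± 12.6 CPM, with 14.4% of its exon bases shared, and the inhibitor Timp1 fell from 172 ± 17.6 to 69.3 ± 17.3 CPM.

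Immune genes did not move in 1 direction. Macrophage genes were lower in 18 of 24 tested cases and higher in 3, with 28 listed. Csf1r, the receptor for macrophage growth factor, measured 16.3, 18.4 and 17.8 CPM in the MEF libraries and 6.73, 9.53 and 9.15 CPM in the CM libraries. Cd68, a lysosomal protein of phagocytes, measured 31.1, 31.2 and 27.9 CPM in the MEF libraries and 16.8, 21.0 and 20.9 CPM in the CM libraries. Both were lower in each CM library, at log2 changes of -1.05 ± 0.14 and -0.62 ± 0.11, and 16.7% of the Csf1r exon bases are shared. Cx3cr1, the fractalkine receptor, fell from 6.93 ± 1.35 to 1.07 ± 0.638 CPM, and the macrophage adhesion receptor Emr1 did not pass, at 13.4, 15.3 and 13.0 against 9.83, 18.8 and 6.80 CPM, but was called lower without CM replicate 2 (adjusted p = 0.0025 in edgeR's test). The fall of Lyz2 was the smallest of those called in this list. The 3 rising genes were Marco, a scavenger receptor with 0 counts in MEFs and 5.07, 9.24 and 7.39 CPM, Cd36, a fatty acid transporter that heart muscle also uses, from 15.4 ± 1.32 to 98.1 ± 29.5 CPM, and Gpnmb, a glycoprotein of lysosomes, from 55.9 ± 0.698 to 306 ± 47.3 CPM. The summed level of the list was 695, 679 and 689 CPM in MEFs and 706, 823 and 703 CPM in the CM libraries. Gpnmb and Cd36 held a large part of the CM sums, so the sums do not follow the fall of most members. The part of this list in other immune changes was not tested.

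Complement genes gave some of the steepest changes outside muscle. C3, the central component, measured 1.14, 0.591 and 1.13 CPM in the MEF libraries and 1703, 1848 and 1786 CPM in the CM libraries. It was low but detected in every MEF library and abundant in every CM library. Its log2 change was 10.84 ± 0.16, with an adjusted p of 3.6e-12 in edgeR's test. C4b rose from 0.475 ± 0.0813 to 188 ± 13.2 CPM, and Serping1, the C1 inhibitor, from 8.51 ± 0.985 to 909.95 ± 88.0 CPM. C1qa, which macrophages make, fell from 4.49 ± 0.873 to 0.208 ± 0.122 CPM. In all, 10 of 16 tested complement genes rose and 6 fell, and the fallen genes included all 3 chains of C1q and the receptors C3ar1 and C5ar1.

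Of the antigen presentation genes, 9 of 15 rose and 1 fell. The class I genes H2-K1 and H2-D1, near-identical in sequence and therefore uncertain apart, rose from 35.1 ± 3.84 to 194 ± 25.5 CPM and from 34.8 ± 2.62 to 89.0 ± 11.9 CPM, and B2m, their light chain, from 836 ± 17.3 to 1447 ± 85.1 CPM. The class II chaperone Cd74 did not pass, at 0.775, 0.430 and 1.23 against 0.983, 1.71 and 1.26 CPM, but was called higher without MEF replicate 3 (adjusted p = 0.043 in edgeR's test). Interferon response genes were lower in 13 and higher in 6 of 26 cases. Isg15, an interferon-induced ubiquitin-like protein, measured 26.9, 23.8 and 25.6 CPM in the MEF libraries and 8.09, 4.12 and 2.01 CPM in the CM libraries. It was lower in each CM library, and replicate 1 lay above replicates 2 and 3. Cxcl10, an interferon-induced chemokine, fell from 16.6 ± 0.534 to 2.47 ± 1.07 CPM. Of all chemokines and cytokines, 14 rose and 13 fell among 29 tested, again an even split like that of all genes tested. Cxcl12, which attracts blood stem cells, rose from 508 ± 9.49 to 1571 ± 229.7 CPM, Ccl2 from 49.2 ± 2.64 to 114 ± 5.64 CPM and Il33, an alarm cytokine of stroma, from 6.73 ± 0.383 to 55.5 ± 2.66 CPM. Cxcl14 fell from 19.2 ± 0.821 to 0.559 ± 0.168 CPM. Markers of lymphocytes and granulocytes were at or near 0, with 2 of 21 genes tested; Cd3e had 1 and 1 count, while Kit, a receptor of mast cells and stem cells, rose from 0.135 ± 0.117 to 2.18 ± 0.476 CPM.

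Markers of further cell types were examined because the cultures could hold them. Epicardial and mesothelial genes, those of the outer lining of the heart, rose in 10 of 14 cases and fell in 3. Wt1, a zinc finger factor of that lining, measured 1.91, 1.61 and 2.08 CPM in the MEF libraries and 27.4, 25.0 and 32.1 CPM in the CM libraries. Lrrn4 and Bnc1, mesothelial genes, rose from 2.96 ± 0.674 to 115 ± 7.49 CPM and from 1.57 ± 0.233 to 60.1 ± 0.710 CPM. These genes were present in each CM library, and all are rising members of the list. Tbx18, a T-box factor of that lining and among the lower cardiac factors above, fell from 28.9 ± 0.787 to 6.90 ± 0.885 CPM. Among endothelial genes, 6 rose and 6 fell of 13 tested, while the defining Pecam1 and Cdh5 had 4 and 22, and 4 and 4 counts over the MEF and the CM libraries. Prox1, a homeobox factor that lymphatic endothelium and heart muscle share, rose from 1.35 ± 0.339 to 92.3 ± 29.3 CPM, and Tek from 0.887 ± 0.281 to 14.5 ± 2.60 CPM. Erg fell from 37.7 ± 2.16 to 6.74 ± 1.48 CPM. Of 8 epithelial genes tested, 7 rose and 1, the keratin Krt19, fell, from 4.44 ± 0.563 to 2.74 ± 0.233 CPM. The keratins Krt8, Krt7 and Krt18 rose from 0.168 ± 0.0529 to 10.2 ± 1.01 CPM, from 0.219 ± 0.0509 to 15.7 ± 2.31 CPM and from 0.895 ± 0.0878 to 17.1 ± 3.15 CPM, and the epithelial cadherin Cdh1 from 0.205 ± 0.110 to 1.67 ± 0.665 CPM, while Epcam had 6 and 7 counts.

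Of 14 adipocyte and lipid storage genes, 11 were higher and 1 lower. Lpl, lipoprotein lipase, which heart and fat both make, measured 14.9, 14.3 and 12.4 CPM in the MEF libraries and 2455, 2786 and 2393 CPM in the CM libraries. Its log2 change was 7.52 ± 0.13, and CM replicate 2 was the highest. Pparg, a factor of fat cells, rose from 1.37 ± 0.0885 to 14.5 ± 0.644 CPM, and Plin1, which coats fat droplets, had 3 and 43 counts and was not tested. Among cartilage and bone genes, 9 rose and 3 fell of 16. Ibsp, bone sialoprotein, measured 58.3, 7.46 and 11.1 CPM against 1 count in MEFs, and Alpl, alkaline phosphatase, rose from 0.104 ± 0.0570 to 17.3 ± 3.82 CPM. Runx2, the bone factor, fell from 102 ± 3.65 to 40.0 ± 8.26 CPM, with 34.5% of its exon bases shared, and Sox9 did not pass, at 36.1, 36.2 and 39.5 against 33.6, 42.5 and 28.6 CPM, but was called lower without CM replicate 2 (adjusted p = 0.040 in edgeR's test). Neural and glial genes divided, with 7 lower and 5 higher of 13. Stmn2 fell from 74.0 ± 1.81 to 0.707 ± 0.135 CPM, Gap43 from 25.4 ± 1.20 to 0.820 ± 0.448 CPM and Tubb3 from 23.8 ± 1.47 to 1.81 ± 0.0977 CPM, while Mbp, a myelin protein, rose from 2.21 ± 0.149 to 24.6 ± 3.04 CPM. Of 17 endoderm and liver genes, 4 were tested; Ttr, transthyretin, measured 13.2, 5.19 and 5.20 CPM, and Alb had no count. Among the reprogramming factors, Pou5f1 did not pass, at 0.775, 0.376 and 0.945 against 1.06, 0.853 and 1.43 CPM, Sox2 rose from 0.399 ± 0.153 to 1.29 ± 0.545 CPM, Klf4 rose from 25.7 ± 1.92 to 47.5 ± 12.11 CPM and Myc fell from 59.4 ± 0.950 to 34.9 ± 9.49 CPM. Otx2, a homeobox factor of the forebrain and the early embryo, measured 23.1, 19.8 and 44.8 CPM against 2 counts in MEFs.

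Fatty acid oxidation genes were higher in 20 of 28 tested cases and lower in 1. The number lower was 4 without CM replicate 3, 2 without CM replicate 1 or MEF replicate 3, and 0 without MEF replicate 1. Ppargc1a, a coactivator of mitochondrial genes, measured 0.930, 0.699 and 1.09 CPM in the MEF libraries and 83.9, 62.3 and 116 CPM in the CM libraries. It was below 2 CPM in each MEF library and lowest among the derivatives in CM replicate 2. Ppara, the receptor that drives fatty acid genes, rose from 0.289 ± 0.0651 to 8.38 ± 0.918 CPM, and Acadm, an acyl-CoA dehydrogenase, from 35.2 ± 2.61 to 84.6 ± 11.1 CPM. Cpt1b, the muscle carnitine transferase, could not be read, with 81.4% of its exon bases shared with Chkb. Glycolysis genes divided almost evenly, 13 higher and 12 lower. Slc2a4, the insulin-responsive glucose carrier, rose from 0.493 ± 0.274 to 16.6 ± 2.31 CPM, and Pgam2, a phosphoglycerate mutase of muscle, from 2.00 ± 0.187 to 56.0 ± 12.4 CPM. Ldha, a lactate dehydrogenase, fell from 932 ± 32.9 to 459 ± 57.5 CPM. Of genes picked after their values were seen, the muscle enolase Eno3 rose from 13.6 ± 1.47 to 149 ± 38.5 CPM, while Eno1 fell from 546 ± 20.7 to 77.7 ± 2.77 CPM and Pgam1 from 509 ± 24.1 to 186 ± 1.42 CPM. The lactate exporter Slc16a3 fell from 19.2 ± 2.00 to 2.96 ± 0.387 CPM, with 15.6% of its exon bases shared.

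Protein genes of the mitochondrial genome all rose, and the nuclear genes of the same complexes rose in part. All 13 protein genes of that genome were higher, at a median log2 change of 2.23. mt-Co1, a subunit of cytochrome oxidase, measured 16923, 19703 and 16927 CPM in the MEF libraries and 100142, 80994 and 112806 CPM in the CM libraries. mt-Cytb rose 4.76-fold and mt-Nd1 4.30-fold. Of 76 nuclear respiratory chain genes, 37 rose, 9 fell and 30 did not pass, at a median log2 change of 0.22. The number that fell was 5 without MEF replicate 1 and 16 without MEF replicate 2. Beyond 2-fold, 6 were higher and 1 lower, among them Cox6a2 and Cox8b, subunits of heart and skeletal muscle, which rose from 0.424 ± 0.0439 to 65.9 ± 26.5 CPM and from 0.417 ± 0.255 to 10.2 ± 1.72 CPM. Tfam, which packs the mitochondrial genome, did not pass, at 31.4, 31.7 and 27.4 against 28.7, 28.8 and 26.4 CPM, and Polrmt, its RNA polymerase, fell from 13.0 ± 1.12 to 8.37 ± 2.07 CPM.

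Genes of cell division and of the cytosolic ribosome were lower in the derivatives. None of 45 replication and mitosis genes rose and 40 fell. Mki67, a nuclear protein of cycling cells, measured 502, 586 and 548 CPM in the MEF libraries and 198, 217 and 374 CPM in the CM libraries. Plk1, a mitotic kinase, measured 34.0, 32.9 and 33.1 CPM in the MEF libraries and 7.49, 6.40 and 8.73 CPM in the CM libraries. The groups did not overlap, and CM replicate 3 stood above the other CM libraries for Mki67; without it, 44 of the list's genes fell. Of cyclins, inhibitors and p53 targets, 21 of 28 fell and 5 rose. Cdkn1a, the p53-induced brake on the cycle, fell from 775 ± 52.0 to 145 ± 28.3 CPM, while Cdkn1c, an imprinted brake, rose from 46.2 ± 3.77 to 236 ± 13.5 CPM. All 60 cytosolic ribosomal protein genes tested were lower, at a median log2 change of -1.14; Rpl3 fell from 728 ± 42.0 to 326 ± 52.9 CPM and Rps6 from 572 ± 14.6 to 318 ± 39.8 CPM. Many ribosomal protein genes have near-identical pseudogenes, so single values are uncertain. Of 23 stress and unfolded protein response genes, 14 fell and 6 rose. The endoplasmic reticulum chaperones Hspa5 and Calr fell from 2719.5 ± 114 to 1339 ± 144 CPM and from 736 ± 50.5 to 191 ± 5.56 CPM. Of 26 lysosomal genes, 17 were higher and 3 lower; Ctsk, cathepsin K, rose from 13.6 ± 1.01 to 76.8 ± 12.0 CPM.

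Among growth factor genes, 7 of 13 genes of the IGF system rose and 5 fell. Igfbp2 and Igfbp5, 2 binding proteins, went opposite ways, Igfbp2 from 11.2 ± 1.62 to 289 ± 81.7 CPM and Igfbp5 from 1306 ± 18.3 to 86.5 ± 13.4 CPM. Igf2, the fetal growth factor, fell from 9909 ± 243 to 7613 ± 269 CPM, a log2 change of -0.38 ± 0.10. Wnt pathway genes rose in 16 and fell in 7 of 27 cases, and the secreted Wnt binders Sfrp1, Sfrp2 and Frzb rose from 159 ± 2.71 to 1592 ± 266 CPM, from 8.52 ± 0.351 to 757 ± 112 CPM and from 6.70 ± 0.855 to 86.1 ± 11.5 CPM. Of the Sfrp2 exon bases, 16.1% are shared with another gene model. The feedback target Axin2 did not pass, at 5.48, 5.75 and 4.11 against 4.39, 4.62 and 4.11 CPM. In the TGF-beta and BMP family, 16 of 27 rose and 8 fell. Bmp4 rose from 56.8 ± 3.02 to 166 ± 31.2 CPM, Bmp7 from 0.135 ± 0.117 to 12.4 ± 3.83 CPM and Gdf6 from 1.85 ± 0.225 to 127 ± 8.99 CPM, while Inhba, an activin subunit, fell from 188 ± 11.9 to 32.4 ± 0.942 CPM. The summed level of that list was 3886, 4029.5 and 3958 CPM in MEFs and 2902, 3274 and 2780.5 CPM in the CM libraries. Of 11 Notch genes, 6 fell and 2 rose, with falls of Notch3 from 34.4 ± 3.38 to 12.6 ± 1.31 CPM and the target Hes1 from 30.9 ± 1.92 to 9.16 ± 1.26 CPM. Of 18 early response genes, 15 were higher and 1 lower, with rises of Fos from 38.9 ± 3.91 to 228 ± 19.8 CPM and Egr1 from 407 ± 22.7 to 1038 ± 33.7 CPM. Imprinted genes divided evenly, as did all genes tested, with 10 higher and 10 lower of 24. Plagl1, an imprinted zinc finger factor, measured 89.9, 91.5 and 93.6 CPM in the MEF libraries and 3720.1, 4103 and 4758 CPM in the CM libraries. It was high in all CM libraries, at a log2 change of 5.52 ± 0.12, and Peg10 rose from 119.98 ± 2.94 to 1074 ± 139 CPM, whereas the noncoding RNAs Meg3 and Rian of a shared cluster fell from 141 ± 8.02 to 38.0 ± 11.4 CPM and from 241 ± 10.5 to 32.0 ± 3.89 CPM.

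The 3 CM libraries differed among themselves, and their order depended on the list. Among called genes with a CM mean of at least 5 CPM, CM replicate 3 was the highest library for 17 of 17 Z-disc genes, 11 of 14 thick filament genes, 14 of 17 calcium genes and 35 of 38 replication and mitosis genes. CM replicate 2 was the lowest for 21 of 21 fatty acid oxidation genes and 16 of 17 Z-disc genes, and the highest for 16 of 20 fibroblast genes and 53 of 60 ribosomal protein genes. Interferon response genes were highest in CM replicate 1 in 13 of 14 cases. The matching shares over all called genes were not computed, so these counts describe the lists only. CM replicate 3 also lay furthest from the CM mean, with a root mean square log2 deviation of 0.184. Those of replicates 1 and 2 were 0.130 and 0.149. The summed level of the thick filament list was 5293, 3421 and 6526 CPM in CM replicates 1, 2 and 3, and that of the Z-disc list was 22148, 15378 and 31404 CPM. Libraries rich in muscle transcripts thus tended to be poorer in fibroblast ones, and the mitochondrial share followed the same order. Whether they held a different share of muscle cells was not tested.

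**Figure D4:**
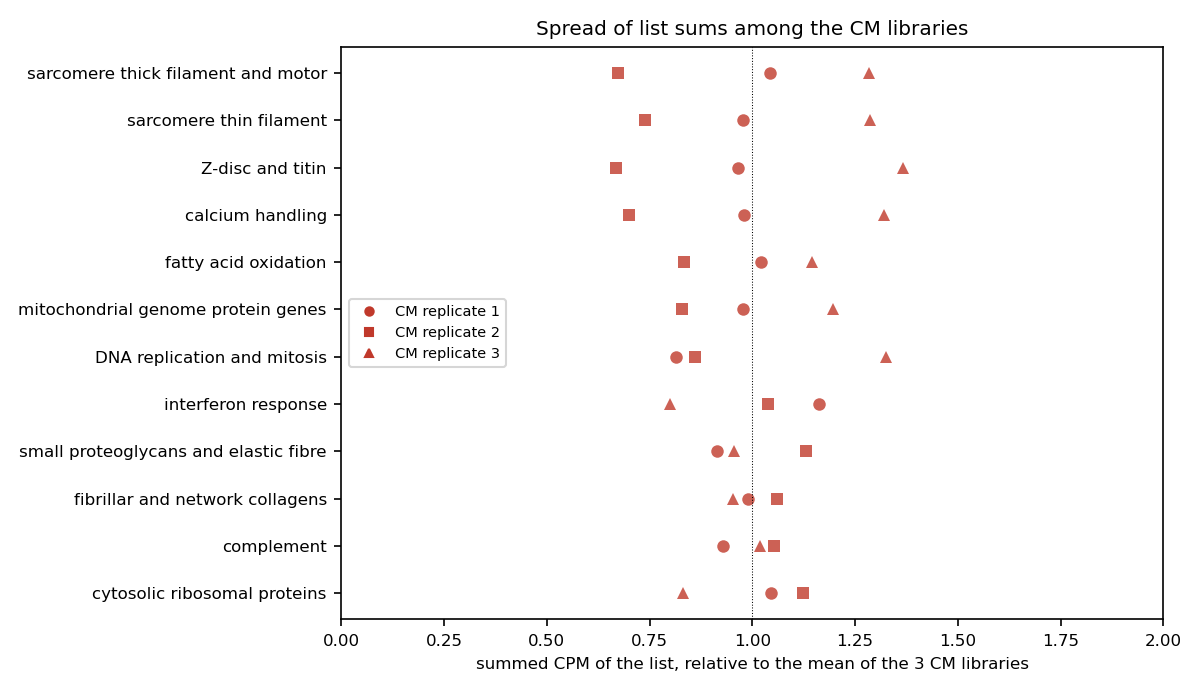
Summed CPM of 12 lists in each CM library divided by the mean of the 3 CM libraries (x axis), 1 row per list (y axis) and 1 symbol per replicate. Muscle, fatty acid and mitochondrial sums are highest in replicate 3 and lowest in replicate 2, and the ribosomal protein sum is highest in replicate 2.

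Values of the intermediate groups, scaled over all 15 libraries and so slightly different from those above, are set beside those of start and end. The labels do not give the ieCPC passage that was differentiated, so neither ieCPC group can be read as the direct source of the derivatives. Myh6 averaged 0.0941 CPM in MEFs, 0.372 at day 9, 1.05 in passage 3 ieCPCs, 1.89 in passage 12 ieCPCs and 2778 in the cardiac derivatives. Tbx20 averaged 0.743 CPM in MEFs, 2.80 at day 9, 299.6 in passage 3 ieCPCs, 264 in passage 12 ieCPCs and 369 in the cardiac derivatives. The structural gene was thus low in both ieCPC groups and the factor was already high there. Hoxd13 averaged 228 CPM in MEFs, 24.2 at day 9, 0.0346 in passage 3 ieCPCs, 0.791 in passage 12 ieCPCs and 0.294 in the cardiac derivatives, and Dcn 79.0 CPM in MEFs, 693 at day 9, 962 in passage 3 ieCPCs, 1308 in passage 12 ieCPCs and 4832 in the cardiac derivatives. C3 averaged 1.05 CPM in MEFs, 24.7 at day 9, 3.28 in passage 3 ieCPCs, 2.25 in passage 12 ieCPCs and 1917 in the cardiac derivatives. Lyz2 averaged 318 CPM in MEFs, 3.24 at day 9, 45.6 in passage 3 ieCPCs, 22.2 in passage 12 ieCPCs and 209.9 in the cardiac derivatives. C3 and Lyz2 were lower in ieCPCs of both passages than in the derivatives. The small net difference in Lyz2 between MEFs and derivatives thus stood beside lower levels at day 9 and in ieCPCs. Thy1 averaged 610.3 CPM in MEFs, 79.4 at day 9, 1.73 in passage 3 ieCPCs, 7.68 in passage 12 ieCPCs and 17.6 in the cardiac derivatives. These group means were set side by side with no test.

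**Figure D5:**
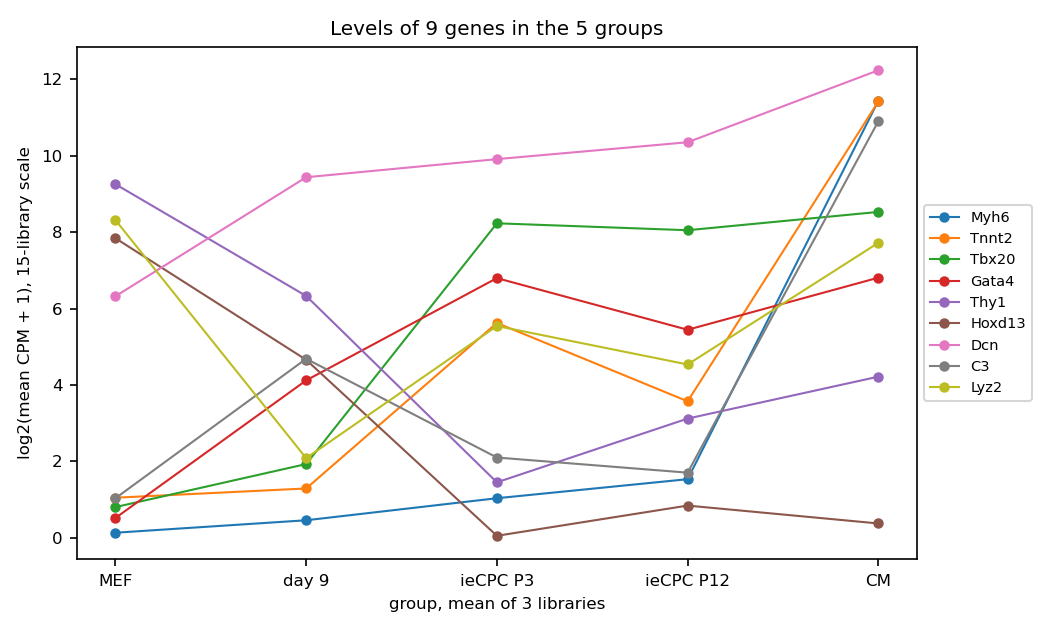
Log2(mean CPM + 1) on the 15-library scale (y axis) of 9 genes in the 5 groups (x axis), each point the mean of 3 libraries. Myh6 and C3 are high only in CM among the groups shown, Tbx20 and Gata4 are high from passage 3 ieCPCs on, and Hoxd13 is high in MEFs and low from passage 3 on.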

How the data were processed

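RNA of mouse cells was sequenced on an Illumina GAIIx, per the labels. Reads were aligned with TopHat2 2.0.13 to mm9 and counted with featureCounts of Subread, per the submitters' processing notes; annotation release and strand setting are not given in the sources used here, so antisense or overlapping genes may share reads. Of the named genes, 23 had over 5% of their exon bases shared with another gene model, and not all are marked above. Unmarked ones include Pou5f1 (14.8%) and Cox6a2 (10.5%). The authors deposited raw counts per gene, normalized CPM, FPKM and the gene length. Only counts and lengths were used: the FPKM column equals CPM over length for the first MEF library alone, to within rounding. The deposited CPM counts mitochondrial transcripts in its library size.

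Counts were tested with edgeR 4.0.16 (limma 3.58.1, R 4.3.3), using glmQLFit and glmQLFTest on the 6 libraries, filterByExpr, TMM factors and library sizes of nuclear genes. Adjusted p-values are Benjamini-Hochberg over 16032 genes; 21959 genes were not tested. Genes were called at an adjusted p under 0.05. A bound uses 3 counts over a group; 95% counting intervals cover counting error only. Alternatives are listed in the closing section.

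The gene lists, their members and the rules were chosen with earlier results of these data known. The rule for named genes gives 251 genes, some of which are not reported here: the 12 largest rises and 12 largest falls whose higher group averaged 10 CPM or more and whose libraries did not overlap, leaving out predicted genes and the like, fixed anchor genes of each list, up to 3 called members per list with the largest changes and at least 5 CPM, and the 6 most abundant nuclear genes per kb of each group. Further list members (Eno1, Eno3, Pgam1, Fbn1, Fbn2, Gpnmb, Inhba, Krt19, Mbp, Hoxb3, Hoxb4, Prrx1, Twist1, Twist2, Col1a2, Eif2s3y, Uty and the genes named without values) were chosen after their values were seen. Tbx18 was likewise chosen after its values were seen. Promoter sequences are RefSeq's, with positions counted back from the gene's start.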

Additional observations from a re-analysis of the deposited data

How the results depend on the processing

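The number of genes called was 11374 and ranged from 10747 with DESeq2 to 12853 with all 15 libraries in the fit over the alternatives that kept every library, among them other scalings, limma voom, no filter and a stricter one. No gene called by both the main analysis and an alternative changed direction. Leaving out each library in turn gave 10561 to 11599 genes called, 5411 to 5894 higher and 5150 to 5705 lower, 3427 to 3570 higher and 1950 to 2109 lower beyond 2-fold, 3549 to 3837 past the test against 2-fold, and a difference in mitochondrial share of 25.4 to 29.1 percentage points. That difference was 27.6 points, of which ribosomal RNA made 21.9 and protein genes 5.68. Of 4078 values of 240 named genes under 17 alternatives, 4048 kept direction and call, 17 lost a call, 8 became calls (4 of S100a4 and 1 each of Myh11, Emr1, Cd74 and Sox9) and 5 changed sign. The sign changes were in genes that the main analysis did not call: over the analyses that left out 1 library, log2 changes ran from -0.74 to 0.046 for Emr1, from -0.26 to 0.026 for Sox9 and from -0.10 to 0.28 for Igf1, with the change of sign without CM replicate 3. For Lamp1 they ran from -0.018 to 0.13, negative without CM replicate 2 and, at -0.0012, without MEF replicate 2. Sparc, called at an adjusted p of 0.031 in edgeR's test, and Kdr lost their calls in 6 and 7 of the alternatives, and the cause was not tested.

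The groups share replicate numbers, but same-numbered libraries did not deviate together (r = 0.12, -0.11 and -0.04 over 11215 genes), so the numbers are taken as names. A fit with a replicate block called 11208 genes. Depth limits the low end. For a group at 0 counts, the bound was taken from 3 counts over the group. Ratios from a group at that level or below, as for Hoxd12, are given with counting intervals. Genes such as Nkx2-5 rest on 120 counts in all.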

Other observations

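Genes of the sex chromosomes, picked after their values were seen, differed between the groups. Xist, the noncoding RNA of the inactive X chromosome, measured 144, 141 and 133 CPM in MEFs and 2.04, 2.20 and 1.93 CPM in the derivatives, a log2 change of -6.07 ± 0.10 with an adjusted p of 5.2e-12 in edgeR's test. The Y-linked genes Ddx3y and Kdm5d measured 83.9, 83.4 and 83.6 CPM in MEFs and 167, 149.8 and 167 CPM (Ddx3y) and 29.9, 31.9 and 27.9 CPM in MEFs and 76.2, 69.9 and 79.3 CPM (Kdm5d) in the derivatives, with log2 changes of 0.95 ± 0.07 and 1.33 ± 0.08. The Y-linked Eif2s3y and Uty rose less, with log2 changes of 0.65 ± 0.07 and 0.45 ± 0.11. Both transcript classes were thus present in every MEF library, while Xist was low and Y-linked transcripts were higher in every CM library. Over MEFs, day 9, passage 3 ieCPCs, passage 12 ieCPCs and derivatives, in that order and on the scale of all 15 libraries, Xist averaged 152, 285, 0.412, 0.480 and 2.22 CPM, Ddx3y 91.5, 58.2, 77.0, 4.03 and 174 CPM and Kdm5d 32.7, 36.0, 52.0, 3.31 and 81.0 CPM. The Y-linked genes were therefore lower in passage 12 ieCPCs than in both passage 3 ieCPCs and the derivatives. The labels give neither the sex of the embryos, nor whether MEFs were pooled, nor the ieCPC passage that was differentiated, and the source of these levels was not tested.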
